A study of Mus musculus with 3 samples.

Results

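The 9 genes described here encode enzymes of glycolysis, the pathway that splits glucose to pyruvate and lactate: Gpi1, Aldoa, Tpi1, Gapdh, Pgk1, Pgam1, Eno1, Pkm and Ldha. They were taken by name, as enzymes of this pathway, from a table of 50507 genes. All 9 were expressed strongly enough to be among the 3013 genes tested. The study followed primary mouse embryonic fibroblasts (BL6 strain, passage 2) early in reprogramming to pluripotency and asked which chromatin and transcription regulators are needed for it. RNA was counted by CEL-Seq2, a method that tags the 3′ ends of transcripts with unique molecular identifiers, so that each count stands for 1 captured molecule.

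Every group carried the same system, lentiviral reprogramming factors (Klf4, c-Myc, Oct4 and Sox2, or OSKM) under doxycycline control, with the transactivator rtTA on a second lentivirus. The culture medium for reprogramming held serum, doxycycline, LIF, ascorbic acid, the GSK3 inhibitor Chiron and an Alk5 inhibitor. The libraries labelled Day00 to Day06 were a time course of cells without transfection, with 3 libraries per day. The libraries labelled nt (a non-targeting siRNA, 3 libraries), Mock (a mock transfection, 5 libraries) and the 33 siRNA pools (98 libraries) were from day 6. Days were counted from the addition of the medium for reprogramming. A later day against Day00 therefore sets the factors, the inhibitors and the change of medium together. The siRNA pools were given by reverse transfection with a lipid reagent, a day before the cells were re-plated and induced. Cells of the time course were re-plated without transfection. The lipid reagent and the extra day cannot be told apart when transfected cells are set against Day06. The cells were bulk populations in which a fraction of the cells reprograms, and fewer cells of a type and less RNA per cell cannot be told apart in them. Nothing in the labels says whether the 3 replicates, which are 3 sequenced pools, came from separate embryos. P-values therefore measure the spread between these libraries, which may be technical in part.

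Glycolysis runs in every cell, and pluripotent cells are known to draw more on it than fibroblasts do. In the upper steps Gpi1 converts glucose 6-phosphate to fructose 6-phosphate, Aldoa cleaves the doubly phosphorylated sugar into a pair of 3-carbon sugars, and Tpi1 interconverts the pair. In the lower steps Gapdh oxidises the product, Pgk1 makes the first ATP, Pgam1 moves the phosphate group, Eno1 removes water and Pkm makes pyruvate and the last ATP. Ldha reduces pyruvate to lactate. Many of these genes are textbook targets of the oxygen-sensing factor HIF-1 and of c-Myc.

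The 127 libraries that were used held 29656 to 235292 counts, with a median of 73279. The library labelled Mock in replicate 3 that was left out held 6403 counts, and its correlation with the deposited normalized Mock column was 0.0172 against 0.924 for the one kept. siMtf1 was left with 2 libraries. Levels are given as CPM, the count of a gene scaled to the TMM-adjusted total of the tested genes in its library. The share of mitochondrial counts ran from 10.8% to 31.4%. Fibroblast markers were present at the start, with a summed level of 7040.5 to 8425.4 CPM at Day00 over 12 of 12 listed genes. The 6 endothelial and 6 erythroid markers all had 0 counts at Day00, and 3 of 8 macrophage markers had counts, with a sum of 124.1 to 225.8 CPM.

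The median count per library was 64.0 for Pgk1, 55.0 for Pkm, 54.0 for Ldha and 41.0 for Aldoa. It was 28.0 for Pgam1, 21.0 for Eno1 and for Tpi1, 14.0 for Gapdh and 8.0 for Gpi1. With so few counts of Gpi1, 0 of them in 3 of the libraries, only large differences of this gene were detectable at this depth. No other of the 9 genes was at 0 in any library.

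Several of these genes have near-identical copies in the mouse genome, and the row of a gene then holds only part of the reads of its family. On GRCm38 the Gapdh gene lies on chromosome 6 (125161715 to 125166467, minus strand). Its row held 2304 counts in the 127 libraries, while 170 rows of long copies (at least 400 aligned bases at 90% identity or more, over the last 500 bases of the transcript) held 49978 counts. Gapdh itself therefore held 4.41% of the counts of its family, with a range of 0.562% to 7.53% over libraries. The largest copies were Gm7336 (3434 counts, 99.6% identity), Gm3839 (3051 counts) and Gm10358 (2602 counts, 99.6% identity), and 5 copies were identical to Gapdh over the aligned end. How a read that fits many of them was assigned decides the value of each row, so both the Gapdh row and the family sum are given below.

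For Eno1 (chromosome 4, 150236721 to 150248879, plus strand) the own row held 51.0% of the counts of the family, mainly because the copy Eno1b held 2717 counts at 94.8% identity. For Pkm (chromosome 9, 59656368 to 59679375, plus strand) the share was 94.2%, with 438 counts in the pseudogene Gm6560. The rows of Aldoa, Ldha and Tpi1 were little affected. All copies together held 1.16% of the counts for Aldoa (chromosome 7, 126795234 to 126800751, minus strand), 0.24% for Ldha (chromosome 7, 46841475 to 46855627, plus strand) and 0.85% for Tpi1 (chromosome 6, 124810586 to 124814296, minus strand). Pgk1 (chromosome X, 106187100 to 106203699, plus strand) and Pgam1 (chromosome 19, 41911923 to 41918660, plus strand) had no copy by this rule. Gpi1 lies on chromosome 7 (34201330 to 34230336, minus strand). The genes that matched it, in part over short stretches only, held 12207 counts. Summed with its long copies alone, its mean went from 170.1 to 180.6 CPM at Day06. In the Mock library of replicate 3 it went from 89.6 to 136.3 CPM. Exons of Gapdh, Aldoa, Tpi1 and Gpi1 overlap a gene on the opposite strand (Iffo1, Fam57b, Spsb2 and Gm26762), and those of Pkm overlap Gm49759 on the same strand.

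The promoters of Pgk1, Tpi1, Ldha and Pgam1 are shown because Pgk1, Tpi1 and Ldha are the 3 members called together in 4 siRNAs below, and Pgam1 was called in none of those. Each sequence is the 250 bases before the first RefSeq start of the gene on GRCm38.p6, 5′ to 3′ on the strand of the gene. Capitals mark the core of the hypoxia response element, ACGTG or GCGTG, searched on both strands. In Pgk1 the window is chrX:106186850-106187099 (plus strand), in Tpi1 chr6:124814159-124814408 (minus strand), in Ldha chr7:46845554-46845803 (plus strand) and in Pgam1 chr19:41911621-41911870 (plus strand).
Pgk1: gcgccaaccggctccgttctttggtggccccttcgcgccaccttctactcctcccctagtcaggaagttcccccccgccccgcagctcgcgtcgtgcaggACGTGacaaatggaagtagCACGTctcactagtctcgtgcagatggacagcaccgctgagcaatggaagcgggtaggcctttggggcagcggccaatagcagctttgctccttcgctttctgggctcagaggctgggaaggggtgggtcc
Tpi1: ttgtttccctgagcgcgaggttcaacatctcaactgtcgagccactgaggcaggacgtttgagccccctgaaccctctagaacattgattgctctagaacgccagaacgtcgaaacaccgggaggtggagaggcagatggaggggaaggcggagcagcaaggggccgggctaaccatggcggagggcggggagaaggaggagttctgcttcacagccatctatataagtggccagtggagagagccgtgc
Ldha: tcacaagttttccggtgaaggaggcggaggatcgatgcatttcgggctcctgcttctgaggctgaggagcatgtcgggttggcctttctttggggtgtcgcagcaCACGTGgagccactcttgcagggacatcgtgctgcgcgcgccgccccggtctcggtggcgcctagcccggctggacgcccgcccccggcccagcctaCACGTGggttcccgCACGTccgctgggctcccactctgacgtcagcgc
Pgam1: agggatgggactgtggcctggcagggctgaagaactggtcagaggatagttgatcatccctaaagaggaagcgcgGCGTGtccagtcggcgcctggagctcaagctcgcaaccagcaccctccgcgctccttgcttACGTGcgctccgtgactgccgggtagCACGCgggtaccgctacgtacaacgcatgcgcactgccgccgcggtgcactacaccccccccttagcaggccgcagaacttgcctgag
The Ldha window held 5 matches of the core, of which 4 belong to 2 copies of the E-box CACGTG, whose letters contain the core on each strand. Pgk1 had 2 matches, at 150 and 131 bases before the start, Pgam1 had 3 and Tpi1 had none. By the first window listed for each gene, 5 of the 9 members held the core (Eno1, Gapdh, Ldha, Pgam1 and Pgk1), against 38.6% of 27025 genes with such a window. The E-box was in 1 of the 9, against 6.05% of all genes, and the GC box GGGCGG in 5, against 32.9%. A match is a description of letters and says nothing of binding.

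The first question was how these transcripts moved in the time course. The 9 did not move as one. The mean level was highest on day 3 in 7 of them, all but Eno1 (day 4) and Pgk1 (day 5), but against Day00 this peak passed the test for Pkm and Gapdh alone. Pgam1 was low on day 5, when Pgk1 was high. In a test for any difference among the 7 days, 5 of 9 members passed at an adjusted p under 0.05 (Pkm, Aldoa, Pgk1, Pgam1 and Gapdh), where 42.5% of all genes tested did. Eno1, Ldha, Tpi1 and Gpi1 did not pass, with adjusted p of 0.106, 0.232, 0.391 and 0.866. Summed with its long copies, Eno1 passed (adjusted p = 0.00029), which made 6 of 9 where 43.1% of genes passed in the fit with sums. Of the 17 calls of a member between 2 single days that follow, 5 were made without the replicate block, and 1, Pgam1 at Day05 against Day00, by limma on the deposited log2 values.

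**Figure D1:**
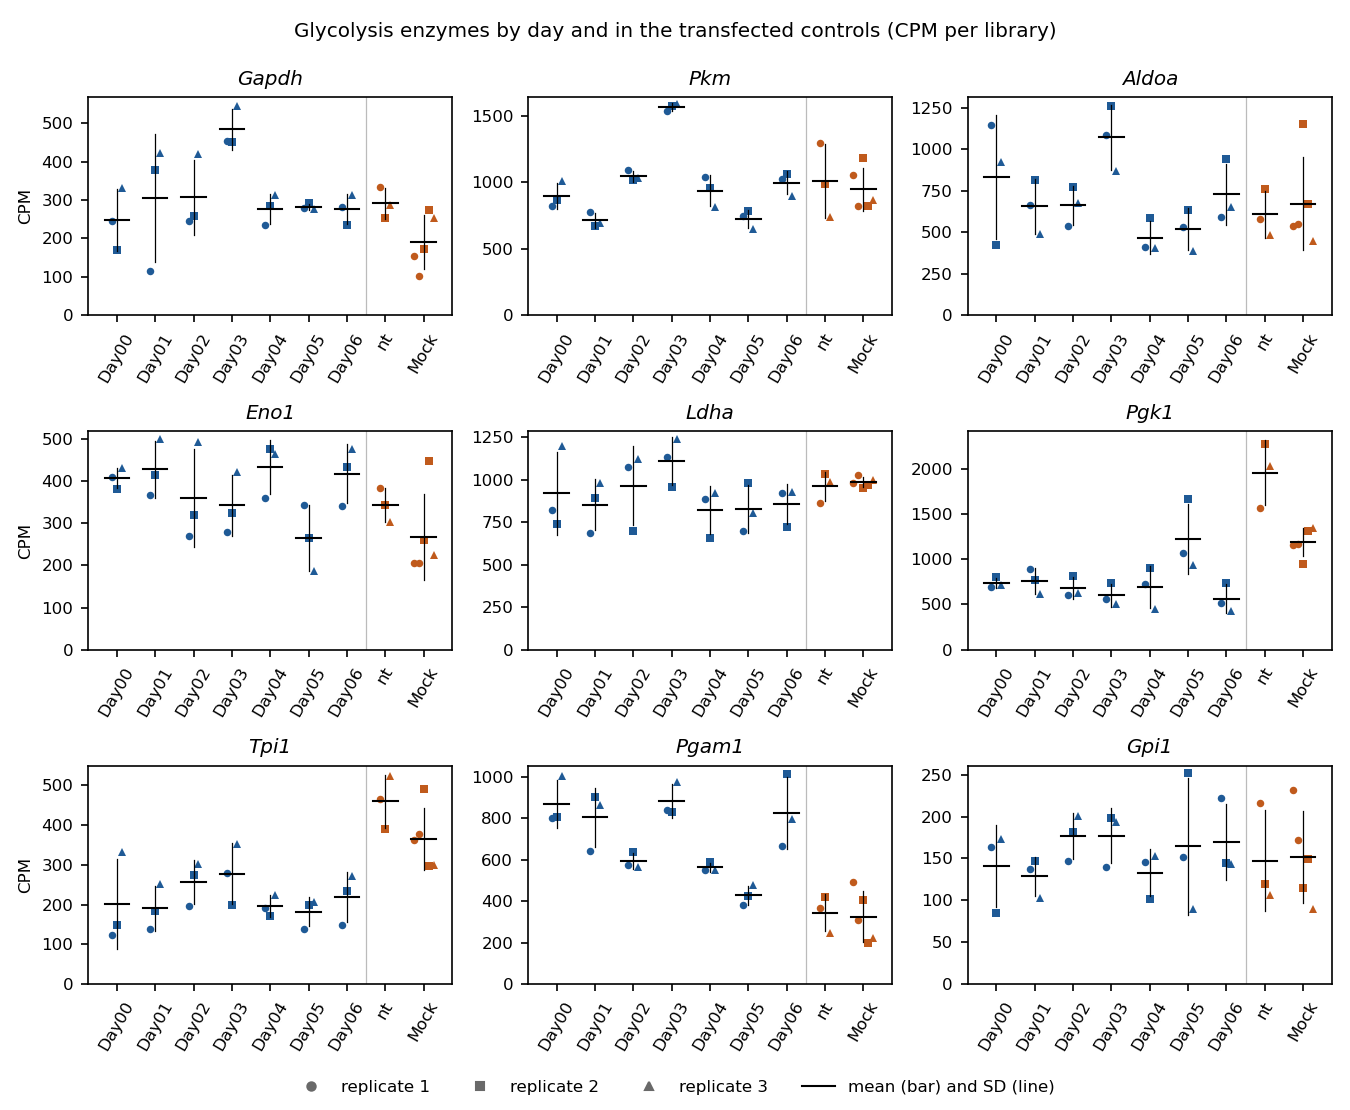
Each panel plots 1 gene in CPM (y axis, from 0) for the days of the time course (blue) and the transfected controls nt and Mock (orange); markers are libraries by replicate, the bar is the mean and the line the SD. Pkm peaks at Day03 with 3 libraries between 1538.9 and 1592.3 CPM, Pgk1 is highest in nt, and Pgam1 is lowest at Day05, in nt and in Mock.

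Pkm, the last ATP-making enzyme, had 821, 868 and 1010 CPM at Day00 in replicates 1, 2 and 3. At Day03 the same replicates had 1539, 1572 and 1592 CPM. All 3 libraries of day 3 lay above every other library of the time course. The change was a log2 difference of 0.75 (SE 0.18, adjusted p = 0.00103), 1.68-fold, and higher in 3 of 3 replicates. From Day02 to Day03 the rise was 0.60 (SE 0.17, adjusted p = 0.0303) and from Day03 to Day04 the fall was -0.77 (SE 0.17, adjusted p = 0.000403). The step from Day02 was no longer called when any 1 replicate was left out (log2 0.51 to 0.60), and the step to Day04 was not called without replicate 3 (-0.65).

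Gapdh, the oxidising step, had 246, 169 and 331 CPM at Day00 and 455, 452 and 545 CPM at Day03. Here too the days did not overlap. The log2 difference was 0.89 (SE 0.28, adjusted p = 0.0213), 1.85-fold, and Pkm and Gapdh were the 2 members called at Day03 against Day00, where 10.9% of genes were. Any 1 replicate left out ended this call for the Gapdh row, with adjusted p of 0.0564, 0.178 and 0.114. The family sum, which rests on more counts, was 5951, 5235 and 6596 CPM at Day00 and 9778, 9878 and 10745 CPM at Day03. Its log2 difference was 0.76 (SE 0.18, adjusted p = 0.00098), in a fit with sums in place of the rows that called 11.1% of genes.

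The drop from day 3 to day 4 was the step with the most members called. Aldoa, Gapdh, Pkm and Pgam1 fell, 4 of 9, where 11.9% of genes were called and 6.64% fell. Aldoa, the sugar-cleaving enzyme, had 1084, 1265 and 871 CPM at Day03 and 415, 587 and 406 CPM at Day04. Its log2 difference was -1.18 (SE 0.22, adjusted p = 1.42e-05), 2.26-fold lower, and lower in 3 of 3 replicates. Gapdh fell by 0.80 (SE 0.25, adjusted p = 0.0211), and its family sum by the same 0.80 (SE 0.18, adjusted p = 0.000473, where the fit with sums called 12.1% of genes). Pgam1 fell by 0.68 (SE 0.21, adjusted p = 0.0159). Leaving out any 1 replicate ended the calls of the Gapdh row (adjusted p 0.137 to 0.147) and of Pgam1 (0.0791 to 0.193), but not that of Aldoa.

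Pgam1, the phosphate-shifting step, was lowest on day 5. Its mean level was 593 CPM at Day02, 882 CPM at Day03 and 563 CPM at Day04. It had 801, 805 and 1001 CPM at Day00 and 381, 425 and 477 CPM at Day05. The groups were far apart, with a log2 difference of -1.04 (SE 0.22, adjusted p = 4.78e-05), 2.06-fold lower. The call at Day05 was kept in every alternative that was run for it. Pgam1 was also called lower at Day02 (-0.62, SE 0.22, adjusted p = 0.0426) and Day04 (-0.69, SE 0.21, adjusted p = 0.0106), calls that any 1 replicate left out ended. At Day06 it had 668, 1012 and 798 CPM. The rise from Day05 was 0.90 (SE 0.22, adjusted p = 0.00221), and 0.70 with no call without replicate 2 (adjusted p = 0.141).

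Pgk1, the first ATP-making enzyme, moved the other way. It had 698, 805 and 712 CPM at Day00, and 1066, 1659 and 934 CPM at Day05. At Day06 it was back at 519, 741 and 429 CPM. The 3 libraries of Day05 lay above all other libraries of the time course. The rise from Day00 was 0.68 (SE 0.20, adjusted p = 0.00482) and that from Day04 was 0.81 (SE 0.19, adjusted p = 0.00263). The fall from Day05 to Day06 was -1.14 (SE 0.21, adjusted p = 1.45e-05), 2.2-fold, and Pgk1 and Pgam1 were the 2 members called in that step, in opposite directions, where 7.87% of genes were called. Eno1 with its long copies was also called there. Its sum was 338.1 to 608.5 CPM at Day05 and 928.8 to 1001.5 CPM at Day06, without overlap, a log2 difference of 1.05 (SE 0.22, adjusted p = 0.000152, where the fit with sums called 8.09% of genes). From Day04 to Day05 the Eno1 sum was called lower (-0.78, SE 0.21, adjusted p = 0.0133, with 5.13% of genes called). The rise of Pgk1 from Day00 was not called by DESeq2 (0.47, adjusted p = 0.085) and not without replicate 2 (0.64, adjusted p = 0.0519). Its rise from Day04 was not called without replicate 3 (0.73, adjusted p = 0.0825).

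In all, 4 of 9 members differed at Day05 against Day00 (Pgk1 higher, Pgam1, Aldoa and Eno1 lower), where 31.9% of genes did. Aldoa was at -0.81 (SE 0.23, adjusted p = 0.0028), although 1 of its 3 replicates was higher at Day05. Its Day00 libraries ranged from 423.5 to 1149.5 CPM. Without replicate 1 its value was -0.60 and without replicate 3 -0.50, both without a call. Eno1 was at -0.72 (SE 0.28, adjusted p = 0.0392), and was not called without replicate 2 (-0.65) or replicate 3 (-0.43), nor when summed with its long copies (-0.48, adjusted p = 0.0961, where the fit with sums called 33.1% of genes). At Day04 against Day00, Aldoa (-0.91, SE 0.23, adjusted p = 0.00099) and Pgam1 were called, 2 of 9 against 18.7% of genes, and Aldoa lost the call without replicate 1 (-0.61) or replicate 3 (-0.72). The other counts were 0 of 9 at Day01 (9.89% of genes), 1 of 9 at Day02 (11.6%), 0 of 9 from Day01 to Day02 (4.81%), 1 of 9 from Day02 to Day03 (2.82%) and 1 of 9 from Day04 to Day05 (4.78%).

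At Day06 few differences of the 9 transcripts from Day00 were detected, which does not show that their levels were equal. None of them passed at Day06 against Day00 under edgeR, where 22.2% of genes did, and 1 of 9 had an unadjusted p under 0.05. DESeq2 called 1 member, Pgk1 (-0.62), as did RLE scaling (-0.63), and limma called none. The largest log2 difference was that of Pgk1 at -0.45 (SE 0.23, adjusted p = 0.151), and the median of the 9 was -0.03 where the median of all genes was 0.05. With its copies, Eno1 was 0.57 higher at Day06 (SE 0.21, adjusted p = 0.0406), where the fit with sums called 23.1% of genes. The summed level of the 9 rows was 5259 ± 846 CPM (SD, n = 3) at Day00, 6516 ± 192 at Day03, 4616 ± 779 at Day05 and 5055 ± 424 at Day06. Over the same days the summed fibroblast markers, all 12 with counts, went from a range of 7040.5 to 8425.4 CPM at Day00 to one of 2675.0 to 3679.5 CPM at Day06, and the part of this in the levels of the 9 genes was not tested.

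Other genes of the pathway were mostly too low to test. Of 32 listed transporters, further isoenzymes and regulators, 4 passed the filter: Slc2a3, Slc16a1, Bsg and Eno1b. At Day06 against Day00, 2 of the 4 were higher and none lower, in a comparison that called 22.2% of all genes. Slc2a3, a glucose transporter, had 22 counts in the Day06 libraries and 1 count in the Day00 libraries, 17.7 times as many after scaling (95% counting interval 2.86 to 731.0, adjusted p = 0.00225). Eno1b rose from 211 ± 135 to 510 ± 74.2 CPM (SD, n = 3), a log2 difference of 1.01 (SE 0.27, adjusted p = 0.00233), not called without replicate 1. Eno1b is the copy of Eno1 named above, at 94.8% identity. Of the counts of the pair, the Eno1 row held 61.2% at Day00 and 46.2% at Day06, and the sum of Eno1 with its long copies was 0.57 higher, as given above. Among 9 genes of the pentose phosphate pathway, which branches off glycolysis, 4 were tested and none was called at Day06. At Day03, where 10.9% of all genes were called, Pgd, an oxidative enzyme of that branch, was higher by 1.27 (SE 0.42, adjusted p = 0.0316). Among 30 genes of pyruvate oxidation and the tricarboxylic acid cycle, 9 were tested, of which 1 was called at Day06 and 1 at Day03. Idh3g, a subunit of isocitrate dehydrogenase, was higher at Day06 by 1.57 (SE 0.52, adjusted p = 0.0175), and Pdha1, a subunit of pyruvate dehydrogenase, was lower at Day03 by a log2 difference of -1.62 (SE 0.48, adjusted p = 0.0128).

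The second question was whether transfected control cells at day 6 matched the time course at day 6. In nt against Day06, 3 of the 9 members were called, a share near the 26.6% of all genes tested. Pgk1 and Tpi1 were higher in nt and Pgam1 was lower. Pgk1 had 519, 741 and 429 CPM at Day06 and 1565, 2273 and 2026 CPM in nt. The nt libraries lay above all libraries of the time course, except that the nt library of replicate 1 was under the Day05 library of replicate 2, which had 1659 CPM. The log2 difference was 1.86 (SE 0.20, adjusted p = 2.38e-15), 3.63-fold, and higher in 3 of 3 replicates.

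Tpi1, which interconverts the 3-carbon sugars, had 148, 235 and 273 CPM at Day06 and 466, 389 and 523 CPM in nt. The groups did not overlap, and the log2 difference was 1.03 (SE 0.26, adjusted p = 0.00151), 2.04-fold. Limma on the deposited log2 values put it at 0.76 without a call. Pgam1 had 668, 1012 and 798 CPM at Day06 and 366, 419 and 245 CPM in nt. Its log2 difference was -1.32 (SE 0.24, adjusted p = 3e-06), 2.49-fold lower. The other 6 members lay between -0.36 and 0.16 and none was called. Their adjusted p ran from 0.335 for Eno1 to 0.948 for Gapdh. Summed with its long copies, Eno1 was called lower in nt (-0.59, SE 0.21, adjusted p = 0.0263), at 624.0 to 670.7 CPM against 928.8 to 1001.5 CPM at Day06, where the fit with sums called 27.1% of genes.

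In Mock, Pgk1 and Pgam1 were again called against Day06, in the same directions as in nt. Pgk1 had 1161 and 1167 CPM in the 2 Mock libraries of replicate 1, 951 and 1316 CPM in those of replicate 2, and 1343 CPM in the 1 of replicate 3. All 5 lay above the 3 libraries of Day06. The fit took the 5 as independent, although the 2 of replicate 1 share a column name, as do the 2 of replicate 2. The p-values of every test that uses Mock may therefore be too small. Against Day06 it was higher by 1.16 (SE 0.20, adjusted p = 1.03e-06), while Pgam1 was at -1.42 (SE 0.24, adjusted p = 2.74e-07). Eno1 was the third of 9 members called, at -0.71 (SE 0.28, adjusted p = 0.0426), where 28.9% of genes were called. The Eno1 call was lost without replicate 1 (-0.65) or replicate 3 (-0.44), and its sum with long copies was at -0.78 (SE 0.21, adjusted p = 0.00193, where the fit with sums called 29.1% of genes). Tpi1 was at 0.65 (SE 0.28, adjusted p = 0.0622). The median of all genes in this comparison was -0.14. nt and Mock were both set against the same Day06 libraries.

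The transfected controls differed from Day06 in more than these genes, and the part of those differences in the results was not tested. Mitochondrial counts made up 22.8% to 26.3% in nt and 22.9% to 28.6% in Mock, against 16.0% to 16.6% at Day06. With these rows left out before scaling, the same number of members was called in both comparisons. The summed fibroblast markers were 1650.2 to 2081.6 CPM in nt, against 2675.0 to 3679.5 CPM at Day06.

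Between the 2 controls, only Pgk1 differed, 1 of 9 where 1.56% of genes did. It was lower in Mock than in nt by a log2 difference of -0.70 (SE 0.17, adjusted p = 0.00771), 1.63-fold, and lower in 3 of 3 replicates. The call was lost without the replicate block (-0.71), without replicate 2 (-0.53) and without replicate 3 (-0.72). The Gapdh row was at -0.48 (SE 0.31, adjusted p = 0.604), but the Gapdh family sum was 3461, 2429, 5648, 4841 and 3543 CPM in Mock against 8821, 7422 and 6386 CPM in nt. None of the Mock libraries reached the lowest nt library, and the log2 difference of the sum was -0.94 (SE 0.17, adjusted p = 3.72e-05, where 1.59% of genes were called in the fit with sums). Against Day06, with 7646, 7180 and 6717 CPM, the family sum in Mock was at -0.88 (SE 0.17, adjusted p = 6.06e-06), and in nt at 0.06 (SE 0.18, adjusted p = 0.826), where the fit with sums called 29.1% and 27.1% of genes.

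**Figure D2:**
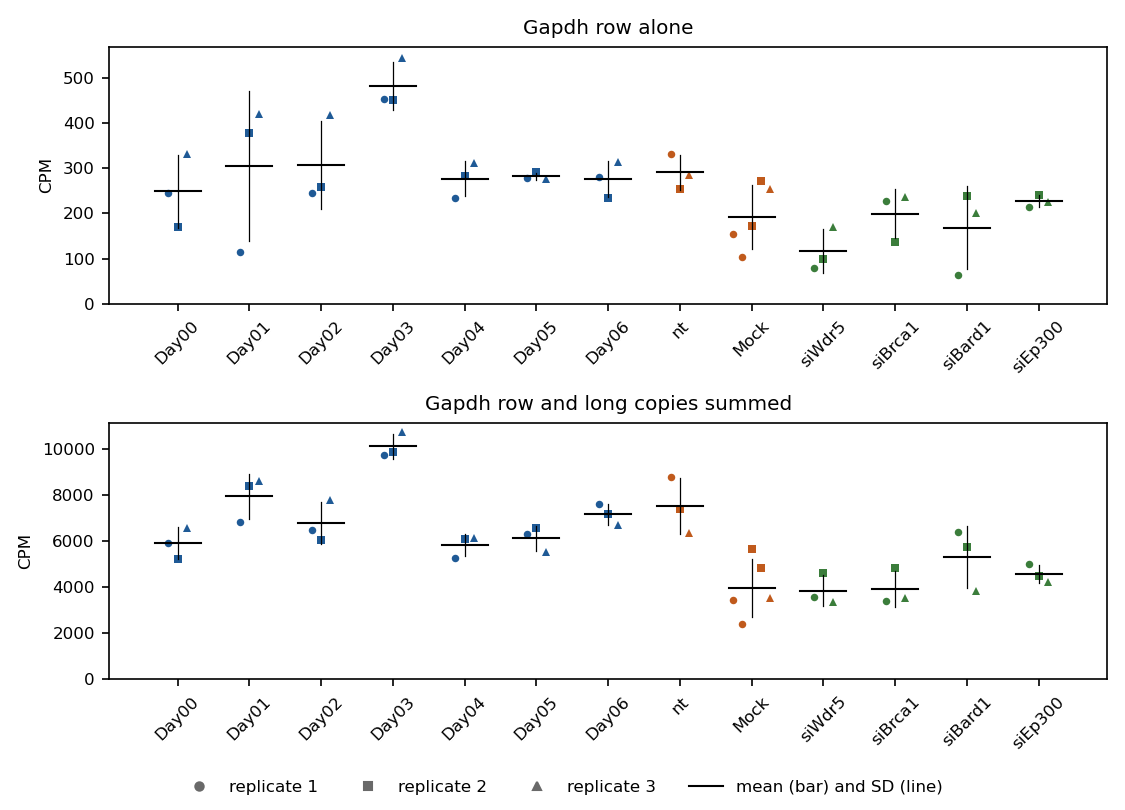
The upper panel plots the Gapdh row and the lower panel the row summed with its long copies, both in CPM from 0, for the time course (blue), nt and Mock (orange) and 4 siRNAs (green), with libraries as markers by replicate, the mean as a bar and the SD as a line. The family sum is highest at Day03, at 9778.1 to 10744.8 CPM, and lower in all 5 Mock libraries than in all 3 nt libraries.

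Genes of the same oxygen-response class as Pgk1 were looked at from a list of 18, of which 5 were tested. In nt against Day06, Bnip3, a mitophagy receptor, and Higd1a, a mitochondrial protein, both known HIF-1 targets, were higher and none was lower, 2 of 5 where 26.6% of all genes were called. Bnip3 was at 587 ± 118 CPM in nt and 65.5 ± 10.2 CPM at Day06 (SD, n = 3), a log2 difference of 3.00 (SE 0.35, adjusted p = 3.65e-13). Higd1a was at 146 ± 21.3 against 40.5 ± 4.19 CPM, a log2 difference of 1.80 (SE 0.52, adjusted p = 0.00595). In Mock against Day06, with 28.9% of all genes called, Bnip3 alone of the 5 was called (2.57, SE 0.37, adjusted p = 1.67e-09). Hif1a, which encodes the oxygen-regulated subunit, fell in the time course from 1060 ± 262 CPM at Day00 to 229 ± 33.1 CPM at Day06, a log2 difference of -2.25 (SE 0.25, adjusted p = 1.84e-14). Among the 9 tested genes of the tricarboxylic acid cycle list, Mdh1, the cytosolic malate dehydrogenase, was higher in nt (1.48, SE 0.28, adjusted p = 1.56e-05) and in Mock (1.60, SE 0.28, adjusted p = 7.97e-07), and Mdh2, the mitochondrial form, was lower in Mock (-1.34, SE 0.41, adjusted p = 0.00673). The pentose list had no call in nt and 1 in Mock, Taldo1 (-1.53, SE 0.44, adjusted p = 0.00411). Of the 4 tested pathway genes, only Eno1b was called, lower in nt (-0.75, SE 0.26, adjusted p = 0.0206) and in Mock (-0.87, SE 0.26, adjusted p = 0.00538). The call in nt was lost without the low-count filter, without the replicate block, with limma and with any 1 replicate left out. None of these lists had a call in Mock against nt.

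The third question was which knockdowns changed the enzymes. Over 33 siRNAs and 9 members, 27 of 297 pairs were called against nt, all 27 lower, where 2.57% of all gene and siRNA pairs were called and 1.28% were lower. The count was 12 without the replicate block, 6 with limma and 18, 18 and 13 without replicates 1, 2 and 3. RLE scaling and no scaling each called 1 pair higher, DESeq2 2 and a fit of only the libraries compared 4. Pgk1 made up 17 of the 27, Ldha and Tpi1 4 each, and Gapdh and Pkm 1 each. Aldoa, Eno1, Pgam1 and Gpi1 were called in no siRNA. All siRNAs share the 3 nt libraries, and nt stood high in Pgk1 against both Day06 and Mock. Set against the pooled nt and Mock libraries, 22 pairs were called (20 lower, 2 higher), where 3.24% of all pairs were called and 1.8% were lower, and Pgk1 was called in 8 siRNAs in place of 17.

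**Figure D3:**
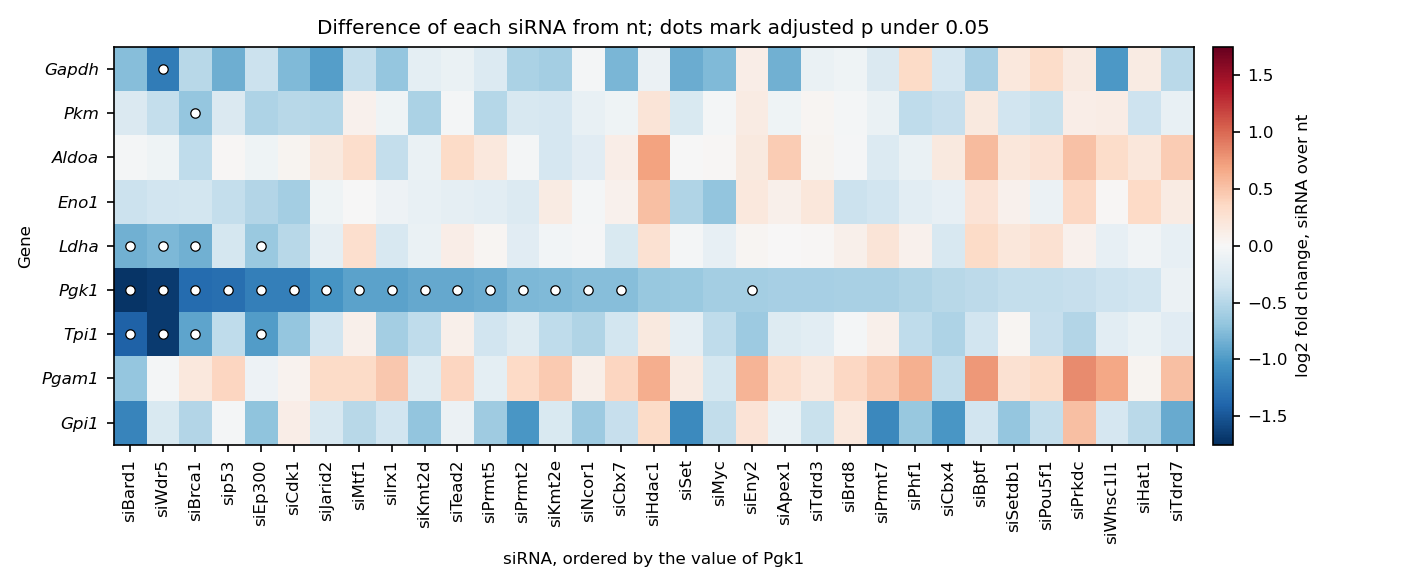
Rows are the 9 genes, columns the 33 siRNAs ordered by Pgk1, and colour is the log2 fold change of the siRNA over nt (blue lower, red higher); dots mark adjusted p under 0.05. Pgk1 is blue in every column because all 33 values lie under 0, while Ldha and Tpi1 carry dots only in siWdr5, siBrca1, siBard1 and siEp300.

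Pgk1 lay under 0 in 33 of 33 siRNAs, with log2 differences from -1.71 in siBard1 to -0.10 in siTdrd7 and a median of -0.66. Against nt and Mock together, 31 of 33 were under 0, the median was -0.32 and the highest value was 0.25, in siTdrd7. Its mean level was lowest in siWdr5, at 621 CPM, and highest in siTdrd7, at 1799 CPM. Tpi1 ran from -1.67 in siWdr5 to 0.17 with a median of -0.34. Ldha was centred near nt, with a median of -0.05 and a range of -0.84 to 0.33. Pgam1, already low in nt, had 26 of its 33 values above 0 or at it, a median of 0.34 and a highest value of 0.83. Against nt and Mock together it was called higher in siPrkdc (0.88, adjusted p = 0.0092) and siBptf (0.81, adjusted p = 0.0495).

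In 4 siRNAs at least 3 of the 9 members were called, and Ldha, Pgk1 and Tpi1 were lower in each of the 4. These were siWdr5 (with Gapdh), siBrca1 (with Pkm), siBard1 and siEp300. Of their 14 calls, 10 were made without the replicate block and 4 by limma on the deposited log2 values (Pgk1 in siWdr5, siBard1 and siBrca1, and Tpi1 in siWdr5). The Gapdh family sum was called lower in each of the 4, at -0.97 (SE 0.19, adjusted p = 1.02e-05) in siWdr5, -0.94 (SE 0.19, adjusted p = 0.000274) in siBrca1, -0.71 (SE 0.18, adjusted p = 0.00535) in siEp300 and -0.52 (SE 0.18, adjusted p = 0.0491) in siBard1, where the fit with sums called 27.7%, 4.25%, 5.9% and 10.6% of genes. It was also lower in Mock (-0.94 against the same nt libraries) and in 16 of the 33 siRNAs in all. Its mean was 3984 CPM in Mock, 3857 CPM in siWdr5 and 3939 CPM in siBrca1. Wdr5 is a shared subunit of histone H3K4 methyltransferase complexes, Brca1 and Bard1 form a ubiquitin ligase of DNA repair, and Ep300 is a histone acetyltransferase. The targets themselves gave too few counts to check the knockdown. Wdr5 had 7 counts in the 3 siWdr5 libraries and 9 in nt, Brca1 had 4 and 2, Bard1 had 0 and 2, and Ep300 had 17 and 3. A lower count of Ep300 was thus not seen in the libraries labelled siEp300. These counts are not scaled to the library totals, which were 80381 to 235292 in siEp300 and 75100 to 143156 in nt. A count of 0 allows up to 3 counts. The condition of each library rests on its column name.

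**Figure D4:**
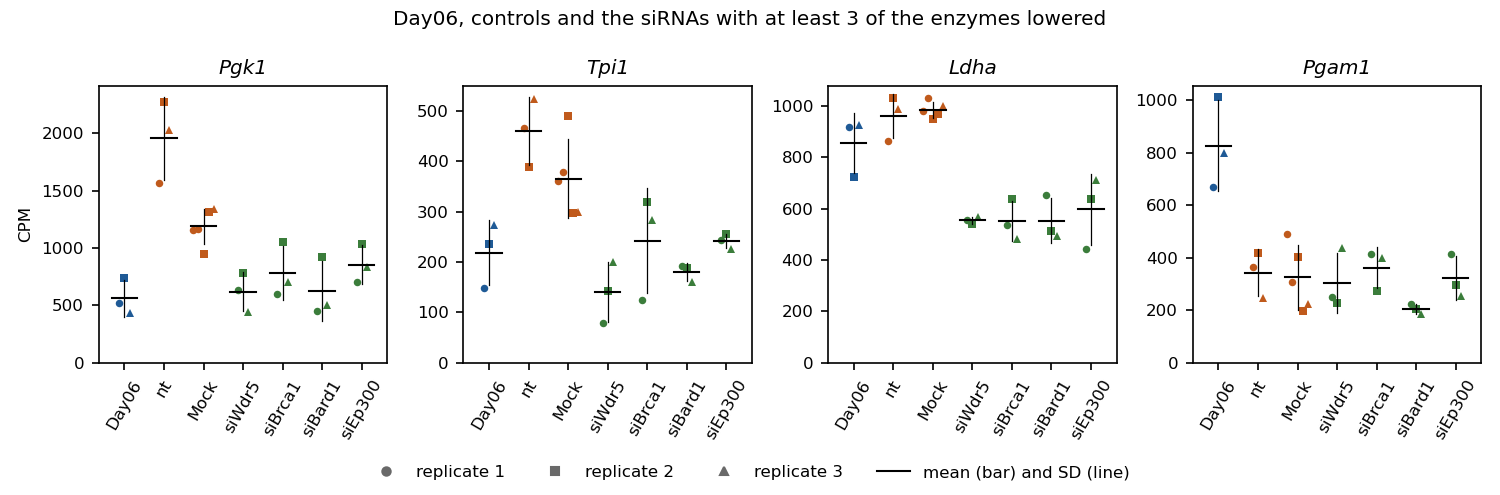
CPM (y axis, from 0) of Pgk1, Tpi1, Ldha and Pgam1 at Day06 (blue), in nt and Mock (orange) and in the 4 siRNAs with at least 3 members called (green); markers are libraries by replicate, the bar is the mean and the line the SD. Pgk1 and Tpi1 in these siRNAs lie under all libraries of nt, Ldha lies under all libraries of nt, Mock and Day06, and Pgam1 lies under all libraries of Day06, lowest in siBard1 at 187.4 to 223.6 CPM.

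In siWdr5, Pgk1 had 634, 782 and 446 CPM, against 1565, 2273 and 2026 CPM in nt. Their range overlapped that of Day06, with 519, 741 and 429 CPM, a pair of groups that was not tested. The log2 difference from nt was -1.68 (SE 0.20, adjusted p = 1.84e-13), 3.21-fold lower. Tpi1 had 79.2, 142 and 199 CPM against 466, 389 and 523 CPM in nt, a log2 difference of -1.67 (SE 0.29, adjusted p = 9.59e-07). Ldha, the lactate-making enzyme, had 555, 540 and 570 CPM against 866, 1032 and 988 CPM in nt. It lay under every library of Day06, which had 920, 723 and 927 CPM, and of Mock, and its log2 difference from nt was -0.79 (SE 0.20, adjusted p = 0.000853). The Gapdh row was at -1.23 (SE 0.34, adjusted p = 0.00275), a call that was lost without replicate 1 (-0.96). These were 4 of 9 members, where 27.2% of genes were called in siWdr5. All 9 log2 differences were under 0, with a median of -0.42, where the median of all genes was at 0.

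In siBard1, Pgk1 had 447, 925 and 500 CPM (log2 -1.71, SE 0.20, adjusted p = 5.12e-13) and Tpi1 had 192, 188 and 160 CPM (-1.42, SE 0.28, adjusted p = 6.16e-05). Ldha had 655, 514 and 493 CPM (-0.84, SE 0.20, adjusted p = 0.00146). All of these libraries lay under all 3 of nt. The 3 of 9 members called compare with 10.3% of genes. Gpi1 had 63.9, 51.4 and 62.5 CPM against 216, 120 and 106 CPM in nt, and its log2 difference of -1.16 (SE 0.48, adjusted p = 0.112) was not called, but it was against nt and Mock together (-1.18, SE 0.43, adjusted p = 0.0471). Without replicate 3, Ldha (-0.72) and Tpi1 (-1.17) were not called in siBard1.

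In siBrca1, Pgk1 had 599, 1049 and 707 CPM (-1.34, SE 0.20, adjusted p = 1.02e-07) and Ldha had 537, 638 and 483 CPM (-0.84, SE 0.21, adjusted p = 0.00788). Both genes lay under nt in 3 of 3 replicates. Pkm at -0.68 (SE 0.21, adjusted p = 0.0345) and Tpi1 at -0.92 (SE 0.28, adjusted p = 0.0375) were closer to the threshold. Pkm was not called when any 1 replicate was left out (-0.65 to -0.82), Tpi1 not without replicate 1 (-0.69) or 3 (-0.95), and Ldha not without replicate 2 (-0.92) or 3 (-0.68). The 4 of 9 members called compare with 4.22% of genes.

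In siEp300, Pgk1 had 701, 1036 and 833 CPM (-1.20, SE 0.18, adjusted p = 1.17e-07), Tpi1 had 243, 255 and 226 CPM (-0.98, SE 0.25, adjusted p = 0.00558), and Ldha had 443, 638 and 710 CPM (-0.65, SE 0.19, adjusted p = 0.0176). All 9 libraries lay under the nt libraries of the same gene. The 3 of 9 members called compare with 5.68% of genes. Ldha was not called when any 1 replicate was left out (-0.57 to -0.80), and Tpi1 not without replicate 3 (-0.76). Pgam1 was not called in any of the 4 siRNAs, with log2 differences of -0.04 in siWdr5, 0.18 in siBrca1, -0.68 in siBard1 and -0.09 in siEp300.

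The fibroblast list was also higher in the 4 siRNAs, and its part in the result was not tested. The summed level of its 12 genes was 4820.6 to 5609.9 CPM in siWdr5, 2826.5 to 3657.5 CPM in siBrca1, 2947.0 to 3944.3 CPM in siBard1 and 2524.8 to 4246.0 CPM in siEp300, against 1650.2 to 2081.6 CPM in nt and 2000.2 to 2709.6 CPM in Mock. By the mean of the libraries the 4 were the highest of the 33 siRNAs, with 3311.7 CPM in siBrca1, the lowest of them, while the other 29 ran from 1098.0 to 3277.0 CPM, the latter in siCdk1, with a median of 2334.4 CPM. All 12 genes had counts in nt, in Mock and in each of the 4 siRNAs. Mitochondrial counts made up 16.7% to 19.7% in siBrca1, with TMM factors of 1.07 to 1.1, against 22.8% to 26.3% and 0.923 to 0.984 in nt. The mitochondrial shares in siWdr5 (21.0% to 23.6%), siBard1 (19.6% to 25.8%) and siEp300 (19.8% to 25.3%) overlapped those of nt. With mitochondrial and rRNA-like rows left out before scaling, all 14 calls in the 4 siRNAs were kept. Against nt and Mock together, Pgk1 and Ldha were again called lower in all 4 and Tpi1 in 3 of them, with Tpi1 in siBrca1 at -0.75 without a call. Pkm was called lower against this control in siBrca1 (-0.64, adjusted p = 0.025), siEp300 (-0.49, adjusted p = 0.0298) and siKmt2d (-0.51, adjusted p = 0.0479).

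Bnip3 of the oxygen-response list was lower in the same 4 siRNAs. Its level was 587 ± 118 CPM in nt, 89.3 ± 40.3 in siWdr5, 243 ± 106 in siBrca1, 115 ± 25.6 in siBard1 and 129 ± 49.5 in siEp300 (SD, n = 3 each). The log2 differences were -2.74 (adjusted p = 4.88e-12), -1.27 (0.00449), -2.18 (1.12e-08) and -1.95 (4.36e-08). Higd1a was lower in siWdr5 (-1.94, adjusted p = 0.00361), siBard1 (-1.76, adjusted p = 0.0148) and siEp300 (-1.76, adjusted p = 0.0121). Other genes of this list went up: Adm, a vasoactive peptide, had 18 counts in siWdr5 and 18 in siBrca1 against 4 in nt (adjusted p = 0.0335 and 0.0345), and Hif1a was higher in siBard1 (1.15, SE 0.34, adjusted p = 0.0127). Mdh1 was lower in siWdr5 (-1.14, SE 0.27, adjusted p = 0.000581). No gene of the pathway or pentose lists was called in the 4 siRNAs.

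Outside these 4, Pgk1 alone was called in 13 siRNAs, and 16 siRNAs had no member called. Those with the smallest adjusted p were siCdk1 (-1.20, SE 0.19, adjusted p = 1.02e-06), sip53 (-1.32, SE 0.20, adjusted p = 1.65e-06) and siIrx1 (-0.94, SE 0.18, adjusted p = 7.83e-05). Against nt and Mock together Pgk1 was still called in siCdk1, sip53, siIrx1 and siKmt2d beside the 4 named siRNAs. siMyc, looked at after its values were seen because c-Myc is a known activator of these genes, had 0 of 9 rows called (0.299% of genes), with 8 of 9 under 0 and a median of -0.43. Its Gapdh family sum was at -1.08 (SE 0.19, adjusted p = 0.000119, where the fit with sums called 0.337% of genes). That of Mock, which had no siRNA against Myc, was at -0.94 against the same nt libraries. Against nt and Mock together, the Gapdh row in siMyc was at -0.55 (adjusted p = 0.776) without a call.

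The Gapdh family sum was called lower than nt in 16 of 33 siRNAs, with values from -1.16 in siKmt2e to -0.52 in siBard1 among those called. Mock was at -0.94 against the same nt libraries. With the sums in place of the rows, 42 of 297 pairs were called, all lower, where 2.65% of all pairs were called and 1.28% were lower.

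Over the means of the 42 conditions the 9 rows were only loosely alike. The points share the 3 pools, the scaling and the genome copies named above. Pearson's r was 0.694 for Pgk1 and Tpi1 and 0.626 for Ldha and Tpi1, and it was -0.222 for Pgk1 and Pgam1. Over the 33 siRNAs alone r for Pgk1 and Pgam1 was 0.502. Ldha was most like the mean of the other members (r = 0.751) and Pgk1 least (r = 0.201). Of 1622 genes with a mean of at least 100 CPM, those whose pattern was most like the mean of the 9 were Atf4 (r = 0.626), Psat1 (0.544), Rps13-ps1 (0.503), Dnaja2 (0.491), Gm11808 (0.485) and Gm10224 (0.484).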

How the data were processed

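The authors mapped CEL-Seq2 reads with Bowtie2 to mm10 (GRCm38), counted unique molecules per gene symbol with GENCODE vM13, and deposited these raw counts without normalization. They also deposited log2 CPM values, scaled by size factors with the batch regressed, for the libraries they kept. The condition of a library came from its column name, and the replicate is the sequenced pool. In replicate 3, 1 of 2 Mock columns of the same name was matched to the log2 table by correlation. The 9 genes and all lists were chosen with earlier results of these data known.

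Counts of 127 of 129 libraries were fitted with edgeR 4.0.16 (quasi-likelihood, TMM, filterByExpr), with a term per condition (42) and the replicate as a block (the study states a batch regression without naming the batch), leaving 83 residual degrees of freedom. The common dispersion was 0.0158. P-values were adjusted by Benjamini-Hochberg over 3013 genes per comparison, with a threshold of 0.05. The standard error is the log2 difference over the root of the test statistic. Same-numbered libraries deviated together only weakly (median r 0.0981, against -0.0685 for different numbers). CPM were averaged as given, with no pseudocount. Counting intervals cover counting error only. Alternatives were RLE or no scaling, no filter, no block, each replicate left out, sums with copies, nt and Mock as the control, DESeq2 1.42.0 and limma 3.58.1. Sums with long copies and scaling without mitochondrial and rRNA-like rows were added after seeing the data. Copies were found with blastn 2.17.0 against GENCODE vM21 transcripts. Promoters are from RefSeq (GRCm38.p6), and all 9 genes matched by symbol. All 9 genes were to be named in every comparison, with siRNAs that had at least 3 of them called and, of each other list, the called genes of smallest adjusted p. The fit was also run on simulated counts, whose spread was set by hand and not taken from these data. That run does not measure the error rate of the fit here.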

Additional observations from a re-analysis of the deposited data

Results flagged for a closer look

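Eno1 in 1 of the 5 Mock libraries stood far from the others. The second Mock library of replicate 2 had 446.8 CPM, the nearest other Mock library had 259.4 CPM, and the gap was 0.778 of the whole range of the group, above the 95% critical value of Dixon's test for 5 samples. The 5 libraries come from 3 sequenced pools, as 2, 2 and 1 of them, so they may not be independent as the test takes them to be. Chance alone flags about 1 in 20 groups, and 9 genes were looked at in this group. The test of Mock against Day06 used this library, and Eno1 was lower in Mock by a log2 difference of -0.71 with it and -0.94 without replicate 2 as a whole. The next largest gap was that of Aldoa, 0.685 of its range, for the first Mock library of replicate 2 with 1153 CPM.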

How the results depend on the processing

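Low counts limit these comparisons, with a median of 8.0 (Gpi1) to 64.0 (Pgk1) counts of a gene per library and mostly 3 libraries per condition. TMM factors were 1.24 to 1.25 at Day06 and 0.923 to 0.984 in nt. The causes of the changes below were not tested, and the setting without a low-count filter was not run for single steps of the time course.

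Members called at Day06 against Day00 were 0 in the main analysis and with 9 alternatives, and 1 with DESeq2, with RLE size factors (Pgk1 in both) and with long copies (Eno1). For any day, 5 members were called, 2 with limma, 6 with either sum of copies (Eno1 added) and 4 to 5 with a replicate left out. For nt against Day06 the 3 members became 5 without a scaling factor, 5 with all copies summed and 4 with long copies. For Mock against Day06 the 3 became 6 without a scaling factor, 5 with all copies summed and 1 with limma. For Mock against nt the 1 member became 0 without the replicate block and with limma, 2 with either sum of copies, and 0 to 1 with a replicate left out. With siRNAs, 27 pairs were called, against totals of 12 without the replicate block, 42 with either sum of copies, 6 with limma, and 13 to 18 with a replicate left out. The 2 pathway genes at Day06 against Day00 became 1 with only the libraries compared and with all copies summed, and 1 to 2 with a replicate left out. The 1 pathway gene in nt against Day06 became 0 without the low-count filter, without the replicate block, with either sum of copies, with limma and with any replicate left out. Of the 17 member calls between 2 single days other than Day06 against Day00, 16 held with DESeq2, 13 without a scaling factor, 5 without the replicate block, 1 with limma and 6 to 9 with a replicate left out. Of the 14 in the 4 named siRNAs, 14 held with DESeq2, 11 without a scaling factor, 10 without the replicate block, 4 with limma and 7 to 11 with a replicate left out.

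Signs turned only for values that were not called. At Day06 against Day00, DESeq2 and RLE gave -0.06 and -0.07 for Gapdh (0.09), -0.10 and -0.09 for Pkm (0.08), -0.12 and -0.11 for Eno1 (0.05), and -0.02 and -0.03 for Gpi1 (0.13), which was -0.13 with all copies. Tpi1 (-0.03) was 0.10 without the filter, 0.05 without scaling, 0.01 without the replicate block, 0.07 with only the libraries compared, 0.02 with long copies, 0.02 without mitochondrial and rRNA rows and 0.31 with limma. With a replicate left out the ranges were -0.12 to 0.38 for Tpi1, -0.13 to 0.21 for Eno1 and -0.61 to 0.05 for Aldoa (-0.28). In nt against Day06, Gapdh (0.03) was -0.11 with DESeq2 and RLE, -0.33 without scaling, -0.04 with only the libraries compared, -0.18 with limma and -0.02 to 0.15 with a replicate left out. Pkm (-0.02) was 0.06 without the filter, 0.01 without the replicate block and -0.18 to 0.10 with a replicate left out, and Ldha (0.16) was -0.21 without scaling and -0.12 with limma. In Mock against Day06, Ldha (0.20) was -0.24 without scaling and -0.17 with limma. In Mock against nt, Aldoa (0.08) was -0.16 without the filter, -0.02 with limma and -0.12 to 0.17 with a replicate left out. Ldha (0.05) was -0.19 without the filter, -0.02 without scaling, -0.05 with limma and -0.02 to 0.10 with a replicate left out. Gpi1 (0.03) was -0.21 without the filter, -0.04 without scaling and -0.01 to 0.03 with a replicate left out, as were Pkm (-0.08) at -0.22 to 0.11 and Pgam1 (-0.10) at -0.28 to 0.10.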
